A study of Mus musculus with 24 samples.

Results

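The far end of a contact map was examined: the HindIII fragments of mouse chromosome 11 that start more than 20 Mb from a mutated Oct4 allele used as viewpoint, in mouse embryonic stem cells. Of the 31865 fragments of chromosome 11, 21636 (67.9%) met that limit, out of 99415 fragments over the 3 chromosomes of the series. On the side of lower coordinates lay 20100 of them, starting below position 74813216. On the side of higher coordinates lay 1536, starting above 114826180. All coordinates are mm9. The viewpoint was placed at chr11:94813216-94826180, the fragment with the highest pooled count, because no label gives its position. The labels call this place an insertion region for which no analysis in cis was made.

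Contacts were measured by paired-end 4C sequencing, which counts the DNA fragments ligated to 1 chosen fragment after crosslinking and HindIII digestion. Both lines have the strain C57Bl/6 x 129/Sv and were taken at passage 7. The OctSox line has the genotype OCF2ΔOCT4/SOX2 and the YY1 line the genotype OCF2ΔYY1, so each line was read from its own mutated allele. Each line was sampled at day 0 and day 3 with 2 biological replicates, giving 4 groups and 8 libraries. The labels do not name the treatment between the days. They neither say whether a line is 1 clone nor whether replicates came from separate cultures, so p-values measure only the spread between these libraries. No library of an unmutated allele at this place is in the data used here, so line and mutation cannot be told apart.

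Oct4 is a transcription factor that keeps embryonic stem cells pluripotent, and it acts with Sox2 on shared DNA motifs. YY1 is a zinc finger protein that binds promoters and enhancers and is known for holding DNA loops. In 4C, contacts are densest next to the viewpoint and thin out with distance along the chromosome, so contacts many megabases away are rare ligation events. In the mouse the centromere lies at the low-coordinate end of the chromosome, so the lower side here runs towards the centromere and the higher side towards the other telomere.

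Library depth ranged from 2935 to 260509 counts, and both replicate 2 libraries of day 3 were shallow (3395 in the OctSox line, 2935 in the YY1 line). Shares below are of the counts outside the viewpoint fragment and its 2 neighbours, which held 1.63% to 13.3% of a library. Reads carry no molecular identifiers, and every interval or floor given is for counting error alone. A fragment without a count could have held up to 0.00119% of these counts in the deepest library and up to 0.106% in the shallowest (3 counts).

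At the limits themselves, coverage was thin. The last fragment inside the lower limit, chr11:74809025-74814745, had 2 counts in 1 library, and the first one outside, chr11:74814752-74816453, had 3 counts in 1 library. On the higher side, the first fragment inside, chr11:114833234-114835830, and the last one outside, chr11:114825172-114833227, had none. The lower far region runs over 71.8 Mb from the first cut site after the unsequenced start of the chromosome, and the higher one over 7.02 Mb. Far fragments had a median length of 2586 bp, with 2553 bp on the lower side and 3108.5 bp on the higher side. Fragments 2 to 20 Mb from the viewpoint had a median of 2724 bp.

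The far fragments held between 14.6% and 32.8% of the counts outside the viewpoint. For OctSox cells the day 0 replicates gave 18.1% and 18.9%, and the day 3 replicates 22.3% and 32.8%. For YY1 cells the day 0 replicates gave 14.6% and 17.1%, and the day 3 replicates 25.6% and 32.8%. Day 3 libraries lay above day 0 libraries in both lines, without overlap, but in OctSox day 3 replicate 1 a single fragment, chr11:3544248-3546901, held 16.1% of the far counts. Without it that library's share was 19.4%.

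On the lower side, the OctSox replicates of day 0 held 15.0% and 12.7%, and those of day 3 held 17.1% and 27.6%. The YY1 replicates of day 0 held 9.56% and 11.4%, and those of day 3 held 19.6% and 29.7%. The lowest day 3 library was above the highest day 0 library. That separation rested on the fragment at 3544248: without it OctSox day 3 replicate 1 held 14.0%, between the OctSox libraries of day 0, while the YY1 days stayed apart. The means were 12.2% ± 2.26 (SD, n = 4) at day 0 and 23.5% ± 6.09 at day 3, or 22.8% ± 7.26 without that fragment. The difference was 11.4 percentage points, made up of 8.56 for OctSox and 14.2 for YY1. An exact two-sided permutation of the days within lines gave p = 0.0556, the smallest that its 36 arrangements allow, and 0.194 after Benjamini-Hochberg adjustment over the 7 tests of this kind, so it does not pass 0.05. The 2 highest values came from the 2 shallow libraries, and without both the difference was 6.22 percentage points (exact permutation p = 0.111).

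On the higher side the days overlapped. OctSox replicates held 3.17% and 6.16% there on day 0, then 5.13% and 5.14% on day 3. YY1 replicates held 5.06% and 5.68% on day 0, then 5.91% and 3.12% on day 3. The day means were 5.02% ± 1.31 and 4.83% ± 1.20 (SD, n = 4), and the difference was -0.19 percentage points (exact permutation p = 0.889, adjusted p = 0.889). Its sign turned without OctSox day 0 replicate 2 (0.56) and without YY1 day 3 replicate 2 (0.51). Whether the day differences of the 2 sides differ was read from the lower side's part of the far counts. That part had a mean of 70.5% at day 0 and 82.2% at day 3, and the difference of 11.6 percentage points did not pass (exact permutation p = 0.111, adjusted p = 0.259). Without both shallow libraries it was 6.38. Between lines it differed by -2.90 percentage points, YY1 minus OctSox (exact permutation p = 0.556). Without OctSox day 0 replicate 1 that value was 0.90, and without YY1 day 3 replicate 1 it was 0.51.

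**Figure D1:**
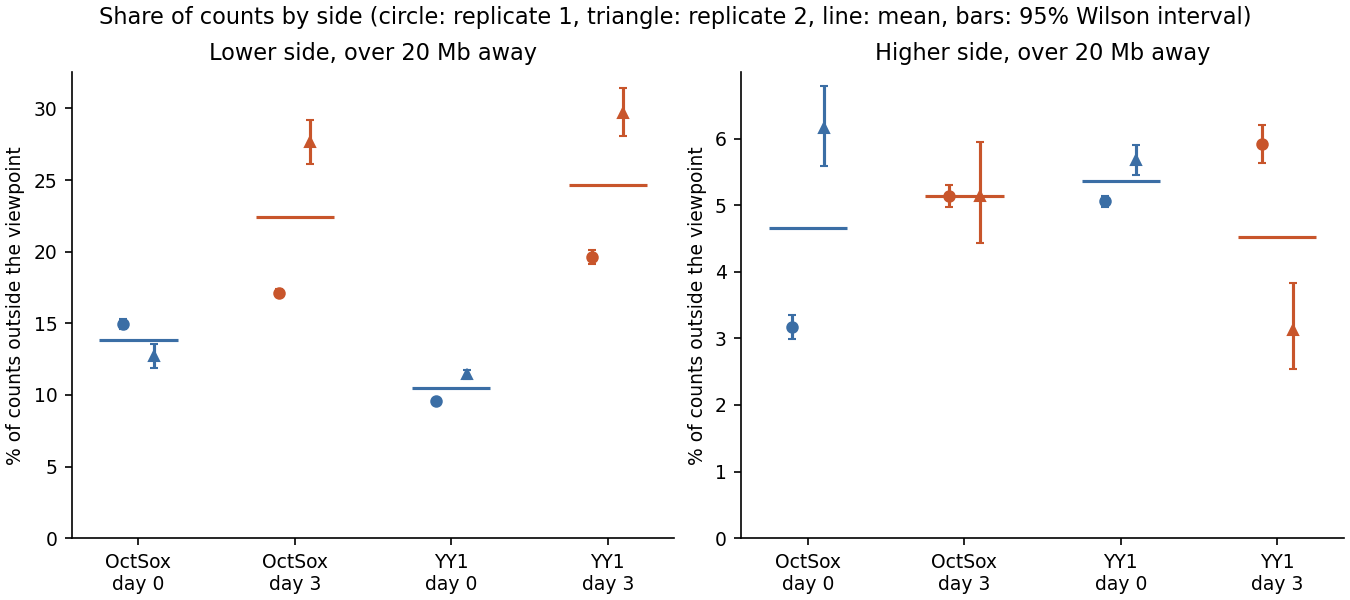
Share of the counts outside the viewpoint that fell on each far side, in percent on the vertical axes, for each line and day. Circles and triangles are replicates 1 and 2 with 95% Wilson intervals (counting error only) and lines are group means. On the lower side all 4 day 3 libraries (17.1% to 29.7%) sit above all 4 day 0 libraries (9.56% to 15.0%), while on the higher side the days overlap; without 1 fragment of OctSox day 3 replicate 1 the lowest day 3 value is 14.0%.

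Contact density differed between the sides. Averaged over the 8 libraries, the lower side held 0.249% of the counts per Mb ± 0.103 (SD) and the higher side 0.701% ± 0.166. Fragments 2 to 20 Mb away held 0.770% per Mb ± 0.114. The lower side reaches much farther out, so the sides were also compared over the distances that both cover, 20 to 27.0 Mb, with 1797 fragments on the lower side and 1536 on the higher. Over that range counts per Mb were higher on the higher side in 8 of 8 libraries. The ratio of higher over lower side was 1.10, 1.75, 1.56 and 1.11 in the OctSox libraries (day 0 replicates 1 and 2, then day 3 replicates 1 and 2). It was 1.47, 1.60, 1.39 and 1.17 in the YY1 libraries in the same order. The mean log2 ratio was 0.46 ± 0.26 (SD, n = 8). An exact two-sided sign-flip permutation over the libraries gave p = 0.00781, the smallest its 256 arrangements allow, and 0.0547 after adjustment over the 7 tests, which is above 0.05. Counted per fragment in place of per Mb, the mean log2 ratio was 0.69. All 8 libraries share this chromosome's sequence and HindIII map, and the part of these in the ratio was not tested.

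Contacts thinned with distance out to 50 Mb and were level from there to 90 Mb. As a mean over the 8 libraries, the lower side held 1.91% of the far counts per Mb at 20 to 30 Mb, 1.38% at 30 to 40 Mb and 1.26% at 40 to 50 Mb. From 50 to 90 Mb the 4 bands of 10 Mb held 0.61%, 0.61%, 0.59% and 0.69% per Mb. The last stretch, 90 to 91.8 Mb away at the start of the chromosome, held 3.27% per Mb, or 2.18% without the fragment at 3544248, and the higher side 3.37%. By day the last stretch held 1.40% per Mb at day 0 and 5.13% at day 3 (2.95% without that fragment), and the higher side 4.20% and 2.54%.

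The days were also compared band by band. At 20 to 30 Mb the mean share of the counts outside the viewpoint was 3.87% ± 0.18 at day 0 and 4.25% ± 0.89 at day 3 (SD, n = 4), and the days overlapped. At 30 to 40 Mb it was 2.54% ± 0.28 and 3.53% ± 0.62, and at 40 to 50 Mb 2.08% ± 0.22 and 3.78% ± 1.52. From 50 to 90 Mb the day 0 means of the 4 bands were 0.80% ± 0.59, 0.74% ± 0.42, 0.86% ± 0.62 and 0.81% ± 0.45. The day 3 means were 2.24% ± 1.11, 2.33% ± 1.06, 2.08% ± 1.48 and 2.81% ± 2.07. In the last stretch it was 0.45% ± 0.27 and 2.52% ± 1.41. The day 3 mean was thus above the day 0 mean in all 8 bands. However, OctSox day 3 replicate 1 was below both OctSox day 0 libraries at 40 to 50, 70 to 80 and 80 to 90 Mb. At 80 to 90 Mb it held 1.10%, against 1.15% and 1.24% at day 0. YY1 day 3 replicate 1 held 1.16% there, against 0.30% and 0.56% at day 0. The shallow day 3 libraries held 5.39% (OctSox) and 3.58% (YY1) in that band. All 4 day 3 libraries were above all 4 day 0 libraries at 30 to 40 Mb, at 60 to 70 Mb and in the last stretch. At 30 to 40 Mb the gap was narrow, with 2.83% in the shallow OctSox day 3 replicate 2 against 2.82% in YY1 day 0 replicate 2. So it was at 60 to 70 Mb, with 1.33% in OctSox day 3 replicate 1 against 1.31% in OctSox day 0 replicate 1. In the last stretch the separation was lost without the fragment at 3544248, when OctSox day 3 replicate 1 held 0.44%. The day 3 mean was then 1.62% ± 1.28. Neither single bands nor differences between bands were tested.

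By fixed 1 Mb windows, 80 of 81 far windows held counts, and 68 held counts in all 8 libraries. The exception was the window holding only the chromosome's first fragment. The mean share of a window, with libraries weighted equally, ranged from 0.17% to 4.98% of the far counts around a median of 0.83%; an even spread over 80 windows would give 1.25%.

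Among the 5 windows with the highest mean, 2 lay on the higher side. The window from 115 to 116 Mb held 4.38% of the far counts ± 2.27 (SD, n = 8), from 0.86% in YY1 day 3 replicate 2 to 7.36% in YY1 day 0 replicate 1. The window from 120 to 121 Mb held 4.07% ± 2.60, with 1.99% to 9.61%. On the lower side, the window from 70 to 71 Mb held 3.95% ± 1.19 and had the narrowest range of the 5, 2.64% to 6.46%. The window from 49 to 50 Mb held 3.76% ± 2.92 and the window from 3 to 4 Mb held 4.98% ± 5.69, the highest mean with the widest spread. That rank came from the fragment at 3544248, without which the window held 3.00% ± 2.51 and was not among the 8 highest. The OctSox line had its 3 highest windows at 3, 120 and 70 Mb, and the YY1 line at 49, 115 and 117 Mb. The window from 117 to 118 Mb held 3.76% ± 2.25 over all libraries.

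Windows ranked much alike between libraries. Spearman's rho over the 80 windows lay between 0.24 and 0.90 for the 28 pairs of libraries, with a median of 0.63. Among the 15 pairs without the 2 shallow day 3 libraries it lay between 0.59 and 0.90 with a median of 0.75. The mean profiles of the lines had a rho of 0.76, and those of the days 0.77. Windows with fewer HindIII fragments held more counts (rho -0.67 over 80 windows), windows with longer fragments held more (0.59), and on the lower side the share fell with distance (-0.49 over 72 windows). These correlations across windows are descriptions, since the windows of a library share its depth and all libraries share one restriction map.

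**Figure D2:**
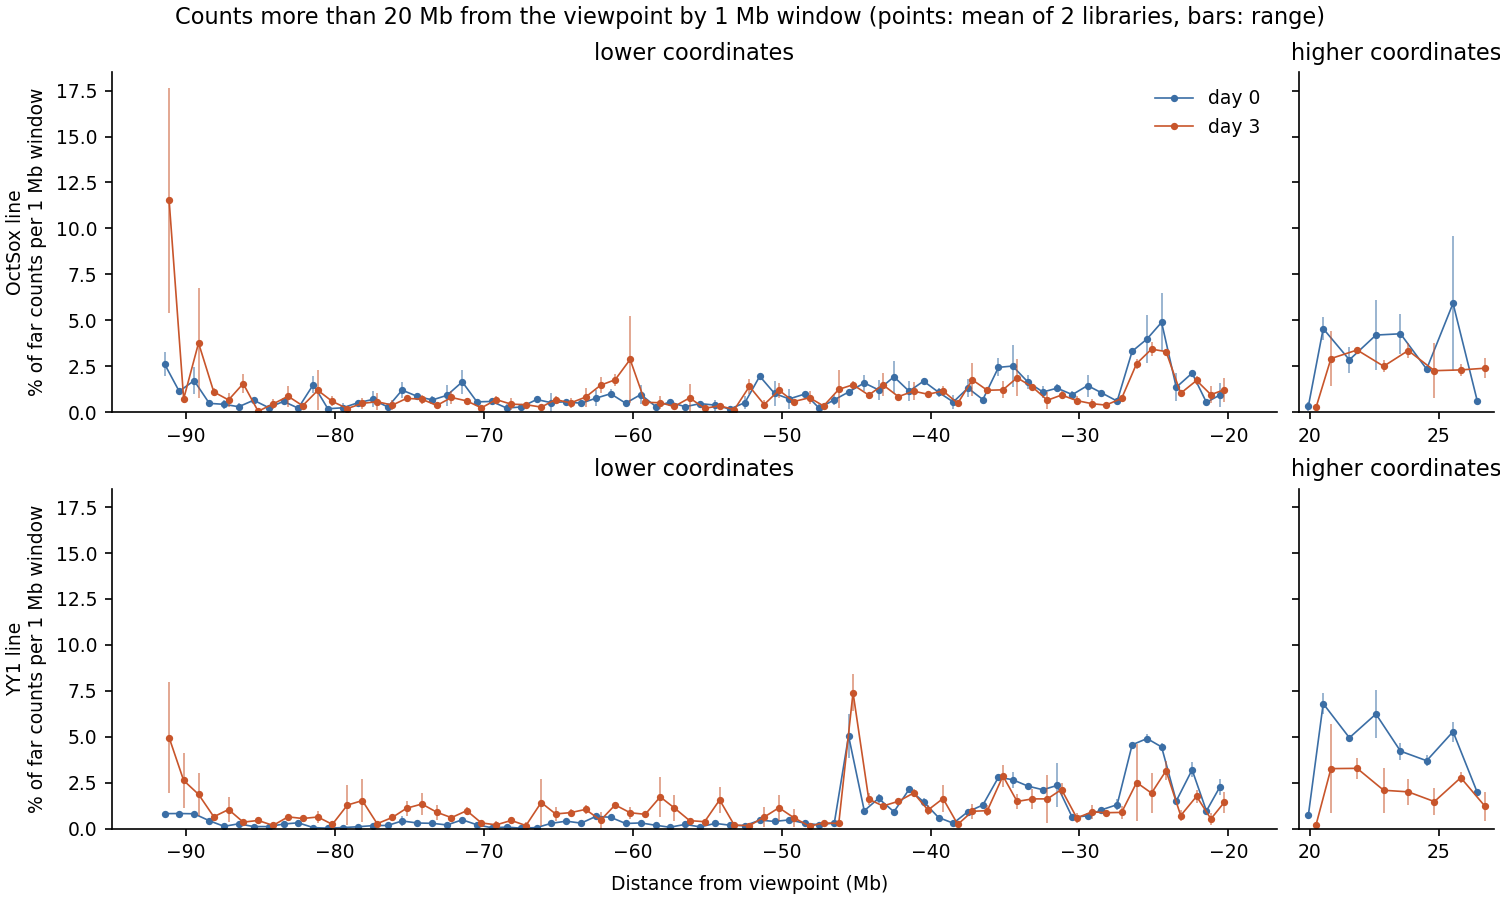
Share of the far counts in each 1 Mb window (percent, vertical axes) against distance from the viewpoint in Mb (horizontal axes, negative on the lower side), for the OctSox line above and the YY1 line below. Points are means of 2 libraries at day 0 or day 3 and bars their range; the window farthest out reaches 17.7% in 1 OctSox day 3 library, and a peak near 45 Mb on the lower side is in the YY1 line.

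Between the days, single windows seldom passed a test across the chromosome. Counts per window were fitted with edgeR's quasi-likelihood test, and p-values were adjusted over all windows tested on chromosome 11. For OctSox 0 of 80 far windows passed the edgeR threshold of 0.05 (0% of all 121 windows). In edgeR 4 far windows had an unadjusted p under 0.05, of 4 over all windows, and DESeq2 called 0. The 3 with the smallest p were those from 3 to 4 Mb (log2 2.51 ± 0.78 SE), 34 to 35 Mb (2.85 ± 0.91) and 121 to 122 Mb (2.27 ± 0.90), for which edgeR gave adjusted p-values of 0.113, 0.113 and 0.398. For YY1 0 of 78 far windows passed in edgeR (0% of all 119 windows); 14 had an unadjusted p under 0.05, of 25 over all windows. DESeq2 called 11, each of them higher at day 3, and 12 of all 119 windows (10.1%). The 3 with the smallest p were those from 40 to 41 Mb (2.88 ± 0.74), 37 to 38 Mb (4.31 ± 1.20) and 3 to 4 Mb (3.12 ± 0.87), all with an edgeR adjusted p of 0.217. The YY1 count rested on the day 3 libraries: without YY1 day 3 replicate 1 edgeR called 28 of 77 far windows, 20 higher and 8 lower, near the share over all windows (39.8%, 21 higher and 26 lower). Without YY1 day 3 replicate 2 it called 2 (1.65% of all windows, both of them far).

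Over both lines, with the line as covariate, 53 of 72 lower windows had a value above 0 (median log2 0.66), against 2 of 8 higher windows (median -0.49) and 3 of 41 windows within 20 Mb (median -0.51). Over all 121 windows 58 were above 0. Scaling by total count in place of TMM moved the median of all windows from -0.04 to 0.37. The counts then were 68 of 72, 2 of 8 and 18 of 41, with medians of 1.09, -0.10 and -0.10. Scaling factors are set per library, so windows need not all move by the same amount. Fitted alone, YY1 had 57 of 70 lower windows above 0 (median 1.14) and 0 of 8 higher windows (median -0.63). OctSox had 44 of 72 lower windows above 0 (median 0.13) and 5 of 8 higher windows (median 0.10). The difference between lines in these counts was not tested. The windows of a library add up to a whole, so these values are not independent.

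Over both lines 1 of 80 far windows passed, which was 0.826% of all windows tested: the window from 3 to 4 Mb, 91 Mb from the viewpoint at the centromeric end (log2 2.72 ± 0.56 SE, edgeR adjusted p = 0.0215). The OctSox replicates of day 0 had 0.59% and 0.37% of their counts outside the viewpoint there, and those of day 3 had 3.93% and 1.77%. The YY1 replicates of day 0 had 0.10% and 0.16%, and those of day 3 had 0.49% and 2.62%. Both day 3 libraries were above both day 0 libraries in each line. In OctSox day 3 replicate 1, however, 2314 of its 2535 counts fell on the fragment chr11:3544248-3546901, which had no count in any other library. Without that fragment the window held 0.36% of the counts outside the viewpoint there, below both OctSox libraries of day 0, so that only the YY1 line kept its days apart.

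The call depended on few libraries. Without OctSox day 3 replicate 1 the value was 2.39 (edgeR adjusted p = 0.0987), and without OctSox day 0 replicate 2 it was 2.64 (0.298). Without the top far fragment of each line it was 1.83 (0.400), and with only far fragments in the fit 2.09 (0.181). By the number of fragments with a count, which a tall fragment cannot raise, the value was 0.88 (edgeR adjusted p = 0.0438). Of the window's 245 fragments, 25 and 7 had a count in the OctSox replicates of day 0 and 29 and 18 in those of day 3. The YY1 replicates had 46 and 14 such fragments on day 0, then 38 and 10. Read against all far fragments with a count in each library, they made up 1.85%, 1.75%, 1.63% and 4.99% for OctSox. For YY1 they made up 1.14%, 0.91%, 1.91% and 3.50%, in the same order. The 2 highest of these shares were in the shallow day 3 libraries. OctSox day 3 replicate 1 was below both OctSox libraries of day 0, and YY1 day 3 replicate 1 above both of YY1. Whether depth changes this measure was not tested.

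Several fragments of this end recurred. The fragments chr11:3029621-3032986 and chr11:3061508-3064538 had counts in 7 of 8 libraries; both were singled out after their values were seen. Others were tall in 1 library: chr11:3076125-3078154 had 30 counts in YY1 day 3 replicate 2, 5 in YY1 day 3 replicate 1, 2 in OctSox day 0 replicate 1 and none elsewhere. About 1 Mb from this window, on the side towards the viewpoint, chr11:5089052-5089727 had 25 counts in OctSox day 0 replicate 2, 59 in OctSox day 3 replicate 2 and none in the other 6. Mappability near the chromosome start was not tested.

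A fragment of this window passed the test of days in the YY1 line, where 1 of 23 far fragments tested passed, against 0.467% of the 428 fragments tested on the chromosome. The 23 were 0.106% of the far fragments, since a fragment had to have enough counts in at least 1 day to be tested, and one that passes this filter through 1 day only must differ. It was chr11:3686846-3689366, with no count in both day 0 libraries and 10 and 18 counts at day 3, and none in the OctSox line. Against a floor of 3 counts over the day 0 group its share was at least 93.6-fold higher. This fragment passed the filter on low counts through day 3 alone. A higher value at day 3 was thus bound to be found, and the p-values are given only as a description. The edgeR adjusted p was 0.00728 (DESeq2 adjusted p 6.6e-05). The fitted log2 value of 10.48 ± 2.52 SE depends on the prior count. The call was lost without YY1 day 0 replicate 1 (edgeR adjusted p = 0.995) and without YY1 day 0 replicate 2 (0.99979). It was also lost without a filter on low counts (0.801) and with the replicate block (0.524).

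For OctSox 1 of 17 far fragments tested (0.0786% of the far fragments) passed between days, against 1.43% of all 210 tested. This was chr11:119247905-119250911 on the higher side, 24.4 Mb away, with no count at day 0 and 39 and 2 counts at day 3. The YY1 replicates had 39 and 6 counts there on day 0, then 1 and 0. Against a floor of 3 counts over the day 0 group the OctSox share was at least 8.28-fold higher at day 3. In the OctSox line this fragment passed the filter on low counts through day 3 alone. A higher value at day 3 was thus bound to be found, and the p-value is given only as a description. The edgeR adjusted p was 0.0324, and DESeq2 did not call it (0.993). It was lost without OctSox day 0 replicate 2 (0.749) and without OctSox day 3 replicate 2 (0.970), with the replicate block (0.991) and without a filter (0.566). Without OctSox day 0 replicate 1 or OctSox day 3 replicate 1, 0 far fragments were called. The interaction of line and day over 659 fragments, added after these counts were seen, called 0 of 82 far fragments (0% of all). In edgeR 11 far fragments had an unadjusted p under 0.05, of 36 over all fragments tested. DESeq2 was not run on this interaction.

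Between the lines 1 of 80 far windows passed (0.826% of all windows tested), the one from 49 to 50 Mb, which was higher in the YY1 line (log2 2.25 ± 0.40 SE, edgeR adjusted p = 0.00567). OctSox replicates had 1.25% and 0.94% of their far counts there on day 0, then 1.28% and 1.71%. YY1 replicates had 3.86% and 6.25% on day 0, then 6.38% and 8.42%. All 4 YY1 libraries lay above all 4 OctSox libraries. The call was lost without OctSox day 0 replicate 2 (adjusted p = 0.0583 by edgeR) and without YY1 day 0 replicate 2 (0.0635), with values of 2.19 and 2.04.

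The window's difference lay in 1 short fragment. The fragment chr11:49209359-49209845, is 487 bp long and lies 45.6 Mb away. YY1 replicates had 1124 and 374 counts on it on day 0, then 354 and 65. OctSox replicates had 0 and 0 on day 0, then 3 and 1. It was the tallest far fragment of every YY1 library, with 3.04%, 5.36%, 5.24% and 7.02% of the far counts. Its neighbours had at most 6 counts in any library, and the rest of the window held 0.81% to 1.61% of the far counts in all 8. Without it the window's log2 value was -0.28 (edgeR adjusted p = 0.982), and by fragments with a count it was -0.04 (0.987).

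As a single fragment it was the 1 of 15 far fragments tested (0.0693% of the far fragments) that passed between the lines, against 0.845% of all 355 tested. It passed the filter on low counts through the YY1 libraries alone, so a difference was bound to be found and the p-value is given only as a description. The pooled share was 161-fold higher in the YY1 line (1917 against 4 counts), with a log2 value of 8.29 ± 1.15 SE (edgeR adjusted p = 3.57e-10). The call held without each library in turn (edgeR adjusted p from 1.55e-08 to 0.000206) and was lost with no filter on low counts (0.715). Within the YY1 line its day value was 1.27 ± 0.41 SE and did not pass (edgeR adjusted p = 0.253). Each line was counted with its own viewpoint allele, and whether that allele, the clone or the library preparation differs here cannot be told apart.

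**Figure D3:**
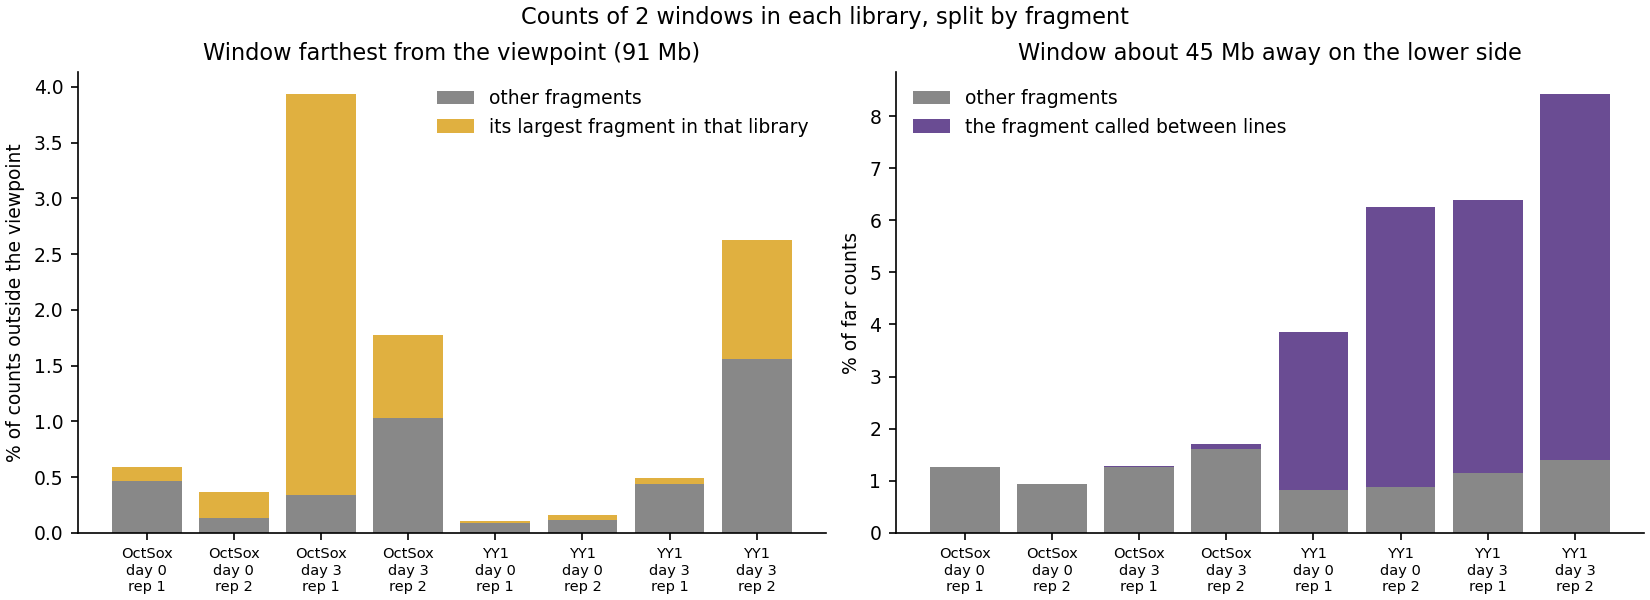
Counts of the windows from 3 to 4 Mb (left, percent of the counts outside the viewpoint) and from 49 to 50 Mb (right, percent of the far counts) in each of the 8 libraries, with the largest or the called fragment set apart in colour and all other fragments in grey. On the left 1 fragment makes up most of the 3.93% of OctSox day 3 replicate 1, and on the right the grey part stays between 0.81% and 1.61% in every library.

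The interaction of line and day called 0 of 80 far windows in edgeR (0% of all windows). In edgeR 9 far windows had an unadjusted p under 0.05, of 9 over all windows. DESeq2 called 2 (1.65% of all windows, both of them far). The 3 with the smallest p were the windows from 28 to 29 Mb (log2 5.84 ± 1.78 SE), 37 to 38 Mb (5.06 ± 1.72) and 16 to 17 Mb (4.40 ± 1.64), each with an edgeR adjusted p of 0.442. In the window from 28 to 29 Mb, YY1 day 3 replicate 2 held 0.89% of the counts outside the viewpoint and the other 7 libraries 0.13% or less. Windows from 16 to 17 Mb and from 37 to 38 Mb were also highest in that shallow library, with 0.89% and 0.60%.

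Most far fragments had no count in any of the 8 libraries. A count was present on 1.32% to 18.7% of the far fragments of a library, or 286 to 4036 fragments. In the deepest library, YY1 day 0 replicate 1, 63.5% of the higher side's fragments and 15.2% of the lower side's had a count, against 56.7% of those 2 to 20 Mb away. Over all 8 libraries 14446 far fragments (66.8%) had none, 4346 had a count in 1 library, and 33 in at least 6. Of those 33, 16 lay on the higher side, which has 1536 of the far fragments. The 2 with a count in all 8 were chr11:63187419-63192477, with 4 to 14 counts, and chr11:72985943-72989506, with 1 to 12 counts. Fragments seen in 1 library only held 29.5% of the pooled far counts.

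Replicates shared from 3.82% to 62.0% of their far fragments. Between OctSox replicates 77 fragments were shared at day 0 (5.68% of the deeper and 19.3% of the shallower replicate) and 76 at day 3 (4.28% and 21.1%). Between YY1 replicates 957 were shared at day 0 (23.7% and 62.0%) and 76 at day 3 (3.82% and 26.6%). The 957 came from the 2 YY1 day 0 libraries, of 260509 and 41818 counts. With libraries pooled, the lines shared 1801 fragments, 54.1% of the OctSox line's 3331 and 31.8% of the YY1 line's 5660. By length, a count in at least 1 library was found on 28.7% of fragments up to 500 bp and on 31.0% to 34.4% in the 4 classes from 500 to 8000 bp, with no steady order. It was found on 41.4% from 8000 to 16000 bp and on 53.8% of the 197 fragments over 16000 bp.

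The breadth of the far contacts was compared at equal depth, as the number of different fragments expected in 500 far counts. OctSox replicates gave 369 and 251 on day 0, then 323 and 236. YY1 replicates gave 425 and 354 on day 0, then 390 and 209. The day difference was -60.0 fragments (exact permutation p = 0.333, adjusted p = 0.583) and the line difference 49.5, YY1 minus OctSox (exact permutation p = 0.444, adjusted p = 0.622). Both were smaller than the pooled SD between replicates, 86.1 fragments. Without both shallow day 3 libraries the day difference was 6.90. Replicate 2 was below replicate 1 in every group, and it was also the shallower library in every group.

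A few fragments took a large part of the far counts in some libraries. The tallest one held 0.73% in OctSox day 0 replicate 1 and 16.1% in OctSox day 3 replicate 1, and the 10 tallest held 5.25% to 24.9%. Besides those named above, chr11:34898043-34899708 had 39 counts in OctSox day 3 replicate 2, 4 in OctSox day 0 replicate 1 and 1 in YY1 day 0 replicate 1. On the higher side, chr11:117260309-117263845 had 183 counts in YY1 day 0 replicate 2 and 36 in YY1 day 0 replicate 1, 2 in OctSox day 3 replicate 1, 1 in YY1 day 3 replicate 1 and none in the other 4. Of the 6 fragments highest by mean share, over both lines or within 1, the fragment at 49209359 was the only one with counts in more than 4 libraries.

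**Figure D4:**
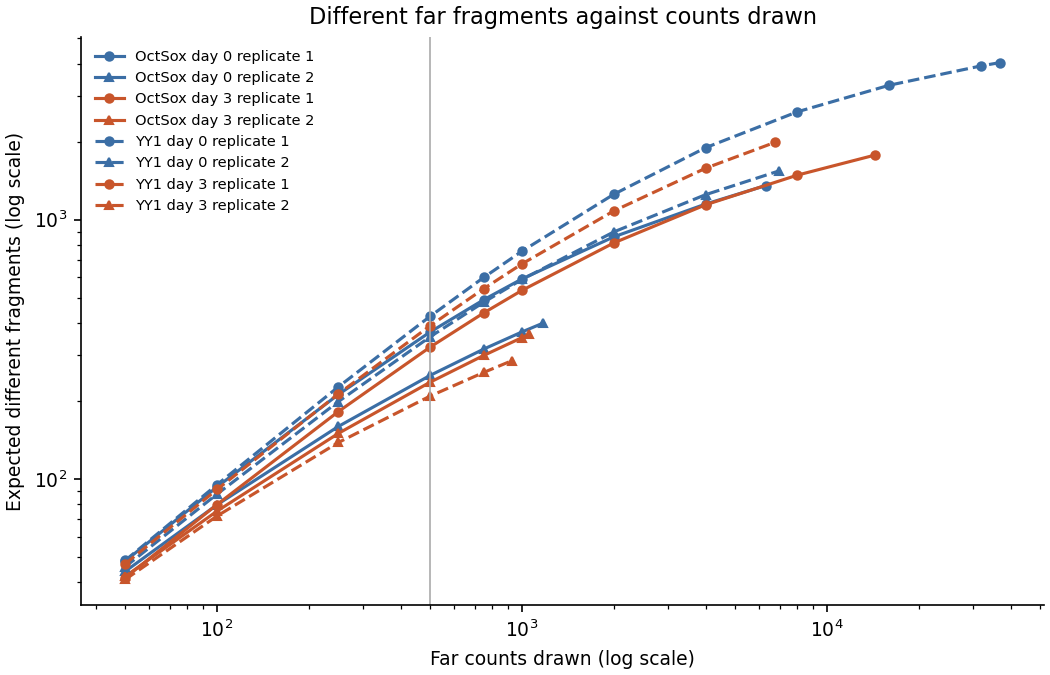
Expected number of different far fragments (vertical, log scale) against the number of far counts drawn from a library (horizontal, log scale), with 1 curve per library and a grey line at 500 counts. At 500 counts the curves lie between 209 and 425 fragments, and the replicate 2 curve of each group lies below that of replicate 1.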

How the data were processed

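For each line the authors deposited a table of raw read counts, with 1 value per HindIII fragment of chromosome 11, and fragment positions in the same order. The submitters' processing notes name Bowtie and mm9; how reads were counted and filtered, and the Bowtie version, is not given in the sources used here. PCR duplicates cannot be removed from these counts. The members, windows and named features were chosen with earlier results of these data known.

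The viewpoint, taken as the fragment of highest pooled count, was left out together with 1 fragment on each side. Counts per fragment and per 1 Mb window (by fragment start, split at the 20 Mb limits) went into edgeR 4.0.16 under R 4.3.3 (TMM, filterByExpr with a minimum count of 10, glmQLFit, glmQLFTest). The fit covered all of chromosome 11, with Benjamini-Hochberg adjustment over all features tested and a threshold of 0.05. SE is the absolute log2 value over the square root of F. Shares were compared by exact permutation over libraries. DESeq2 1.42.0 was an alternative, and every group's libraries were left out in turn. Named are the 5 windows and fragments with the highest mean share, the 3 highest in each line, every call, the 3 smallest p where none passed, and the fragments at the limits. Tests were tried on simulated counts. Depth per library was 2935 to 260509 counts; Wilson intervals are at 95%. Other steps ran in Python 3.11.15 with pandas 2.3.3, numpy 2.4.6 and scipy 1.17.1, and plots in matplotlib 3.10.9. No genome of the files' build was at hand, so no gene or sequence is given for a fragment.

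Replicate numbers were checked for pairing. Deviations from group means over 80 windows correlated between -0.06 and 0.29 for the 6 pairs of groups. With 2 libraries per group, and a shallow replicate 2 at day 3, this cannot show whether samples with the same number were paired. The main tests used no pairing.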

Additional observations from a re-analysis of the deposited data

Results flagged for a closer look

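Of 26 values checked for opposite day changes in the lines, 2 had both day 3 libraries above both day 0 libraries in 1 line and below them in the other. The fragment chr11:119247905-119250911 gained 0.0614 percentage points of the counts outside the viewpoint from day 0 to day 3 in the OctSox line, and changed by -0.0132 in the YY1 line. The interaction of line and day did not pass for it (log2 -10.02 ± 4.84 SE, edgeR adjusted p = 0.779). The YY1 replicates had 39 and 6 counts on this fragment on day 0, then 1 and 0. That 0 was in the shallow YY1 day 3 replicate 2, where a fragment without a count could have held up to 0.106%. The window from 28 to 29 Mb had 44 and 8 counts in the OctSox replicates on day 0, then 52 and 2. It changed by -0.0560 percentage points in the OctSox line and by 0.453 in the YY1 line. Its interaction did not pass either (log2 5.84 ± 1.78 SE, edgeR adjusted p = 0.442), and most of its YY1 value came from the shallow YY1 day 3 replicate 2.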

How the results depend on the processing

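Of 301 alternatives, 106 that left out 1 library and 114 others were classed as unchanged. For counts of calls this meant the same number of calls. For single windows, single fragments and the test of sides at matched distance it meant the same direction and side of the threshold. The test of sides was classed by its unadjusted p (exact sign-flip permutation, 0.00781 with all libraries). Its adjusted p of 0.0547 did not pass. For the exact permutation tests by day and by line only the direction could change. Their smallest possible p was 0.0556 with all libraries (0.125 with the replicate block), above the threshold, and fewer libraries allow fewer arrangements. Counts of called far windows moved as follows. For the OctSox days the count was 2 when scaled by total count (of 2 over all windows). For the YY1 days it was 11 by DESeq2 (of 12 over all windows), 9 with no filter (of 15), 8 with nothing left out at the viewpoint (of 12), 7 and 12 with windows of 2 and 0.5 Mb (of 16 and 13), 4 by fragments with a count (of 4) and 8 without the top fragments (of 11). All of these far calls were higher at day 3; of the calls nearer the viewpoint, 1, 6, 4, 9, 1, 0 and 3 were lower, in the same order. For both lines it was 2 by DESeq2 (of 2 over all windows) and 0 with only far fragments or without the top fragments. For the lines it was 2 with windows of 0.5 Mb (of 3 over all windows) or without both shallow libraries (of 3). It was 0 by fragments with a count or without the top fragments. For the interaction it was 2 by DESeq2 (of 2 over all windows) and 1 by fragments with a count (of 1). Called far fragments fell to 0 for the OctSox days by DESeq2 and with no filter (of 0 over all fragments in both). They also fell to 0 with nothing left out at the viewpoint (of 4) or without the top fragments (of 2). They fell to 0 for the YY1 days with no filter (of 0), and to 0 for the lines with no filter (of 0) or without the top fragments (of 2).

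Leaving out 1 library gave 0 to 1 window calls for the OctSox days, 0 to 28 for the YY1 days, 0 to 1 for both lines, 0 to 3 for the lines and 0 to 3 for the interaction. Fragment calls between the lines were 1 to 2, with 1 to 3 over all fragments tested. For the days such a fit leaves 1 library in a group, and the fragment calls changed in most of these fits. The higher side's day difference ranged from -0.94 to 0.56 percentage points, the line difference in the lower part from -6.69 to 0.90, and the day difference in different fragments from -105 to -14.7. Without both shallow libraries the higher side's difference was 0.51, and that in different fragments was 6.90. The window from 49 to 50 Mb turned sign by fragments with a count (-0.037) and without the top fragments (-0.28). The causes of these moves were not tested, except that the fragment called between the lines is itself a top fragment.

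With the replicate number as a block, the interaction called 1 far window (of 1 over all windows). The far fragment calls for the days fell to 0 in the OctSox line (of 0 over all fragments) and to 0 in the YY1 line (of 1). Whether samples with the same number were paired is not known, and the main tests used no pairing. Depth limits single fragments most: at most 23 far fragments passed the filter on low counts in a comparison of days with all libraries.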
